A study of Homo sapiens with 6 samples.

Results

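The genes examined here are the ligands and receptors of the 4 classical axon guidance systems: the semaphorins with their plexin and neuropilin receptors, the ephrins with their Eph receptors, the Slits with their Robo receptors, and the netrins with DCC and the UNC5 receptors. They were taken by gene symbol alone, as all probe sets whose single symbol in the platform annotation belongs to one of these families. This gave 93 probe sets of 57 genes, out of 22215 probe sets tested. SH-SY5Y cells come from a human neuroblastoma and serve as stand-ins for neurons. They were exposed for 4 h to medium with free unconjugated bilirubin (UCB) at 140 nM (Bf 140 nM, 3 arrays) or with its solvent alone (DMSO 0.6%, 3 arrays). The bilirubin was dissolved in DMSO, the line derives from one tumour, and separate flasks served for each treatment. RNA of whole cultures was measured, so fewer cells of a kind and less RNA per cell cannot be told apart. Values are normalised log2 levels as deposited, and differences are Bf 140 nM minus DMSO 0.6%, also on the log2 scale.

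Axon guidance cues are secreted or membrane-bound proteins that attract or repel the growth cone, the motile tip of a growing neurite. Most secreted semaphorins act through a neuropilin, which binds the ligand, and a plexin, which carries the signal, while the membrane-bound semaphorins bind plexins directly. Ephrins sit on the surface of one cell and Eph receptor tyrosine kinases on the next, so that both cells can receive a signal; A-type ephrins are held by a lipid anchor and B-type ephrins cross the membrane. Slits repel through Robo receptors, and netrin attracts through DCC and repels through UNC5 receptors. In neural crest derivatives, from which neuroblastoma arises, these cues steer migrating cells as well as axons.

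The arrays were close to each other, with correlations between 0.971 and 0.996, and DMSO replicate 3 stood apart from the rest. Its beta-actin 3' minus 5' probe set difference, a measure of how complete the labelled RNA is, was 2.21, against 0.11 to 0.89 on the other 5 arrays. The next highest was Bf 140 nM replicate 3. Of 12 noradrenergic neuroblast markers measured, 11 lay above the background level defined below, among them PHOX2A, GATA3, DBH and STMN2. The exception was TH, the first enzyme of catecholamine synthesis. None of the 3 endothelial and 2 macrophage markers did, while 8 of 10 mesenchymal or Schwann-like markers did, FN1 and VIM included.

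The first question was which ligands and which of their receptors the cells expressed. Detection calls were not used here, so a probe set was taken as above background when its mean over the 6 arrays exceeded 7.46. This is the 95th percentile of 78 probe sets of a background list. The list was taken by gene family, such as olfactory receptors, hair keratin-associated proteins and crystallins. Whether these genes are silent in SH-SY5Y cells was not tested. By this rule 52 of the 93 probe sets were above background, against 61.2% of all probe sets. Counted by gene, each by its brightest probe set, 37 of the 57 passed, against 8116 of all 11963 genes. Probe sets differ in how strongly they respond, so the rule is a rough cut and does not rank one gene against another. On single arrays the 95th percentile of the list ran from 7.36 to 7.63. A gene with several probe sets also has more chances to pass.

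All 3 Slits, all 3 B-type ephrins, both neuropilins and all 3 measured Robo receptors were above background. So were 11 of 18 semaphorins (SEMA3A, SEMA3C, SEMA3F, SEMA4A, SEMA4C, SEMA4D, SEMA4F, SEMA4G, SEMA5A, SEMA6B and SEMA6C) and 6 of 8 plexins (PLXNA1, PLXNA2, PLXNA3, PLXNB1, PLXNB2 and PLXND1). Of the A-type ephrins, EFNA1, EFNA3, EFNA4 and EFNA5 passed and EFNA2 did not. The Eph receptors were sparser. Only EPHA2 passed of 6 EphA genes, and EPHB3 and EPHB4 passed of 4 EphB genes, while EPHA1, EPHA3, EPHA4, EPHA5, EPHA7, EPHB1 and EPHB6 did not. Both netrins, NTN1 and NTN3, stayed below the level, as did DCC, the receptor of netrin attraction. The UNC5 receptors UNC5B and UNC5C passed. The other genes below the level were SEMA3B, SEMA3D, SEMA3E, SEMA3G, SEMA6A, SEMA6D, SEMA7A, PLXNB3 and PLXNC1. Some genes passed by only part of their probe sets, such as NRP2 (1 of 5), NRP1 (2 of 3), SLIT1 (1 of 2) and EFNB3 (1 of 2). At a stricter level of 7.85, the 99th percentile of the background list, 28 genes passed. SLIT1, EFNB1, NRP1, NRP2, ROBO3, ROBO4, SEMA5A, SEMA6B and PLXNA3 did not pass there.

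Set out as pairs, 77 listed ligand and receptor combinations had both genes measured, and in 29 both genes were above background. Semaphorins gave 16 of these pairs, ephrins 10, Slits 3 and netrins 0. SEMA3A had its receptor NRP1, SEMA3F had NRP2, and SEMA3C had NRP1, NRP2 and PLXND1. Among the membrane-bound semaphorins SEMA4D had PLXNB1 and PLXNB2, SEMA4C and SEMA4G had PLXNB2, and SEMA6C had PLXNA1. All 3 Slits stood with ROBO1. In 31 pairs only the ligand passed, and 29 of these were ephrin pairs. In 10 pairs only the receptor passed, 2 of them NTN1 with UNC5B or UNC5C, and SEMA7A with PLXNC1 was among the 7 pairs in which neither did. At the 99th percentile of the background list, a level of 7.85, both genes passed in 19 pairs. These were 9 of semaphorins, 8 of ephrins and 2 of Slits. The brightest probe sets of NRP1 and NRP2 had means of 7.67 and 7.80, below that level, so no pair with a neuropilin was left.

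**Figure D1:**
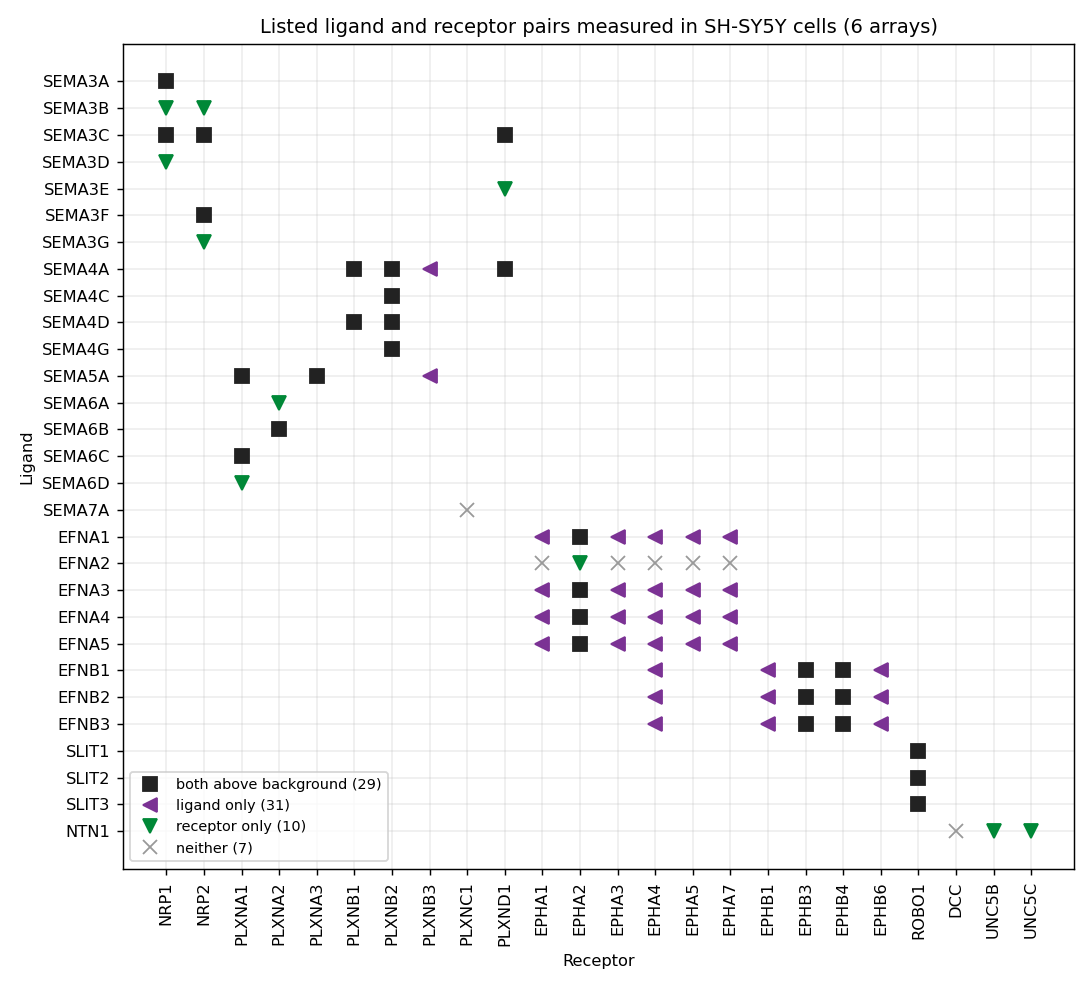
Ligands (vertical axis) and receptors (horizontal axis) for the 77 listed pairs with both genes measured; the symbol shows which of the genes had a probe set with a mean over 6 arrays above the background level. In 29 pairs both were above it, most EphA columns hold ligand-only pairs, and NTN1 forms no pair with both genes above it.

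Just outside the limit was EPHA4, a receptor that takes both types of ephrin. Its probe set had 7.40, 7.76 and 7.34 in Bf 140 nM and 7.58, 7.28 and 7.29 in DMSO 0.6%, a mean of 7.44. Just inside the limit was ROBO4, known from endothelial cells, with a mean of 7.48. Without DMSO replicate 3 the background level was 7.43 and EPHA4, then at a mean of 7.47, passed, which brought the pairs to 36.

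The second question was whether bilirubin shifted these genes at 4 h. No member probe set passed an adjusted p of 0.10 in limma (0 of 93), nor with the replicate number as a block, and the share called over all probe sets was 0% in both fits. At an unadjusted p under 0.05 there were also 0 members in both fits, against 17 of 22215 probe sets (0.0765%) without the block and 92 (0.414%) with it. Both shares lie far below 0.05, the share that this threshold gives when nothing changes. The p-values thus ran high over the whole array, and 0 members is weak evidence of no shift. The reason was not tested. The lowest unadjusted p among the members was 0.159 by limma, with an adjusted p of 1.00. The intervals bound what could have been missed. The 95% confidence interval lay within 2-fold in both directions for 92 of 93 member probe sets (97.8% of all probe sets) and within 1.5-fold for 86 (85.7% of all). With the replicate block, 93 lay within 2-fold and 92 within 1.5-fold (97.5% of all). Dim probe sets are compressed on this scale, so their true folds can exceed these bounds.

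The median difference over the member probe sets was 0.01, and over all probe sets 0.03. The sign of the member median depended on scaling, since it was -0.0134 after quantile normalisation and -0.0229 with each array centred on its median. In the pairs of arrays with replicate numbers 1, 2 and 3 the member medians were -0.02, 0.09 and -0.01, against 0.03, -0.0043 and 0.04 over all probe sets. Differences ranged from -0.16 for a probe set of EPHB1 to 0.35 for a probe set of SEMA3C, and 53 of 93 were above 0, where 63.2% of all probe sets were. The 31 ligand genes had a median of 0.0035 and the 26 receptor genes one of 0.0040, each gene by its brightest probe set.

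**Figure D2:**
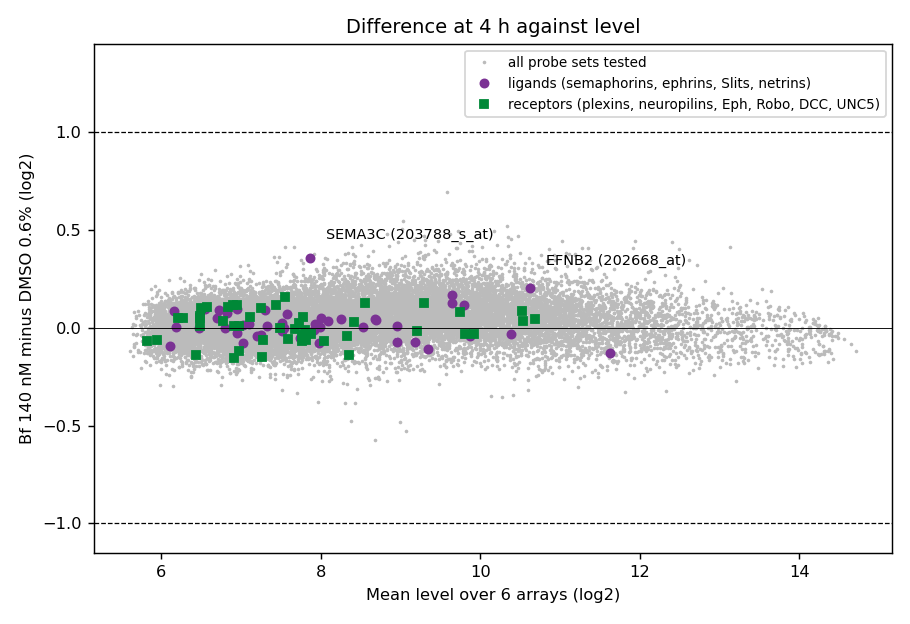
Bf 140 nM minus DMSO 0.6% on the vertical axis (log2) and mean level over 6 arrays on the horizontal axis (log2) for all 22215 probe sets (grey), with ligands as circles and receptors as squares; dashed lines mark 2-fold. The members lie within the grey cloud between -0.16 and 0.35.

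Among the semaphorins, SEMA3C, a secreted cue for neural crest cells and axons, was measured by a pair of probe sets that differed in sign. The brighter one had 11.69, 11.39 and 11.60 in Bf 140 nM and 11.47, 11.71 and 11.89 in DMSO 0.6%, a difference of -0.13 (SE 0.14). The dimmer one had 8.57, 8.03 and 7.53 in Bf 140 nM and 8.11, 8.28 and 6.68 in DMSO 0.6%, a difference of 0.35 (SE 0.44). The groups overlapped in both, and the dimmer probe set was lowest on DMSO replicate 3, the array with the highest beta-actin 3' minus 5' difference; the part of RNA quality in this was not tested. Its interval, 0.623 to 2.62 fold, was the one among the members that reached beyond 2-fold without the replicate block, and with the block it was 0.981 to 1.66 fold. SEMA4G, a membrane-bound semaphorin, had 7.83, 8.11 and 7.89 in Bf 140 nM and 8.14, 7.94 and 7.98 in DMSO 0.6%, with overlapping groups and a ratio of 0.948 (95% CI 0.784 to 1.15). SEMA3A, the prototype of repulsive semaphorins, differed by 0.02, and the remaining semaphorins had differences between -0.09 for SEMA3E and 0.10 for a probe set of SEMA6A.

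Of the semaphorin receptors, PLXNA1, a signalling partner of the neuropilins, had 10.42, 10.47 and 10.77 in Bf 140 nM and 10.49, 10.51 and 10.55 in DMSO 0.6%. Its highest value was on Bf 140 nM replicate 3, and the ratio was 1.03 (95% CI 0.846 to 1.24). The dimmer PLXNA1 probe set, also above background, had 8.16, 8.38 and 8.32 in Bf 140 nM and 8.39, 8.30 and 8.59 in DMSO 0.6%. Its difference of -0.14 (SE 0.12) was opposite in sign and the lowest among the members above background, and its groups overlapped. PLXNB1, the receptor of SEMA4D, had 8.60, 8.93 and 8.32 in Bf 140 nM and 8.88, 8.66 and 7.93 in DMSO 0.6%. Its lowest value was on DMSO replicate 3, and the difference of 0.13 (SE 0.27, and 0.14 with the replicate block) was -0.15 without that array. NRP2, which binds SEMA3F, had 7.89, 7.85 and 7.63 in Bf 140 nM and 7.78, 7.76 and 7.87 in DMSO 0.6%, a ratio of 0.992 (95% CI 0.833 to 1.18). The groups overlapped for these 3 genes. PLXNC1, the receptor of SEMA7A, had positive differences in all 3 of its probe sets, 0.12, 0.11 and 0.06, but all of them lay below the background level.

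Among the ephrins and Eph receptors, EFNB2, a B-type ephrin known for its part in vessel and neural crest patterning, had the highest difference of any member by its brightest probe set. That probe set had 11.03, 10.07 and 11.07 in Bf 140 nM and 10.91, 10.27 and 10.39 in DMSO 0.6%, a ratio of 1.15 (95% CI 0.715 to 1.85). In pairs 1, 2 and 3 it differed by 0.12, -0.20 and 0.68, so that the sign was not shared and the largest value came from the pair that holds DMSO replicate 3. Leaving out single arrays moved the difference of 0.20 between 0.03 without Bf 140 nM replicate 3 and 0.53 without Bf 140 nM replicate 2. The dimmer EFNB2 probe set had 9.72, 9.45 and 10.00 in Bf 140 nM and 9.45, 9.22 and 10.00 in DMSO 0.6%, with differences of 0.27, 0.22 and 0.0034 in the pairs. EPHB4, the receptor best known as the partner of EFNB2, had 9.38, 9.12 and 9.10 in Bf 140 nM and 9.31, 9.14 and 9.20 in DMSO 0.6%, a ratio of 0.989 (95% CI 0.822 to 1.19). The groups of EFNB2 and EPHB4 overlapped in every probe set.

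EFNA5, an A-type ephrin that repels axons in topographic maps, had 9.05, 8.95 and 9.86 in Bf 140 nM and 9.17, 9.08 and 9.93 in DMSO 0.6%. Each Bf 140 nM value lay slightly below its same-numbered DMSO value, by 0.12, 0.13 and 0.07. Replicate 3 was far above the others in both groups. The difference was -0.11, with an SE of 0.30 in the unpaired fit and 0.11 with the replicate block. EFNA4 had 9.15, 9.19 and 9.11 in Bf 140 nM and 9.27, 9.20 and 9.19 in DMSO 0.6%, lower in 3 of 3 pairs with a ratio of 0.952 (95% CI 0.823 to 1.10). EPHA2, the EphA receptor above background and one known from epithelia and tumours, had 7.95, 8.19 and 7.87 in Bf 140 nM and 8.19, 8.31 and 7.72 in DMSO 0.6%, a ratio of 0.955 (95% CI 0.719 to 1.27). These 3 genes were not separated by treatment either. The other ephrins above background, EFNA1, EFNA3, EFNB1 and EFNB3, had differences between -0.04 and 0.04 by their brightest probe sets.

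**Figure D3:**
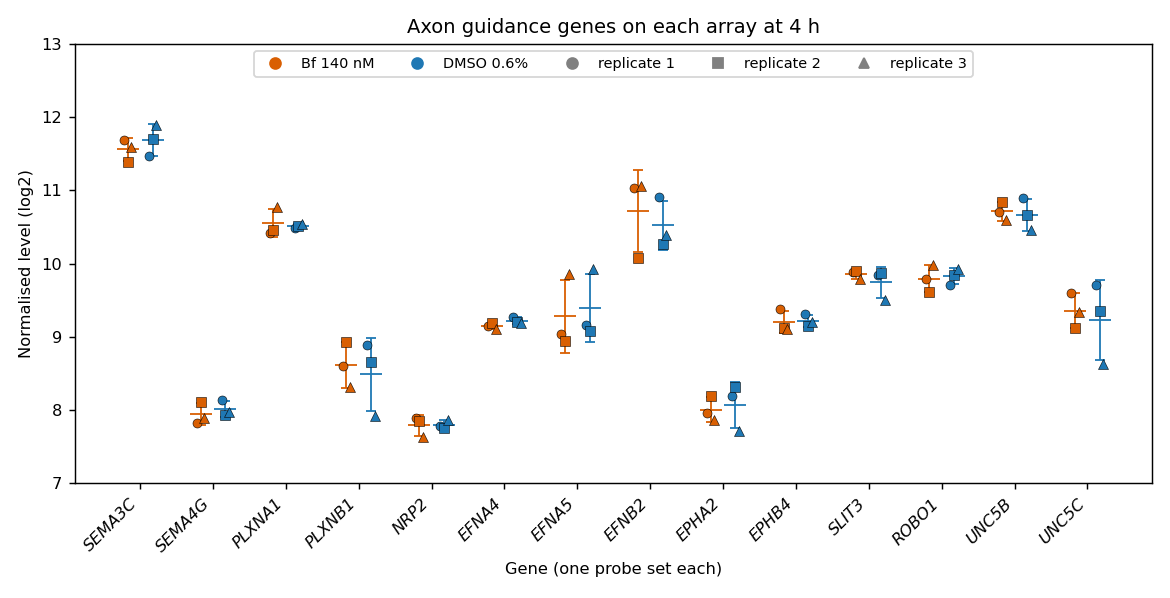
Normalised log2 level of 14 axon guidance genes on each array (one probe set a gene), with Bf 140 nM orange on the left and DMSO 0.6% blue on the right; each shape is one replicate number, and each bar a mean with the SD of 3 arrays. The groups overlap for all 14 genes, and EFNA5, EFNB2, PLXNB1 and UNC5C spread more between arrays than the rest.

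In the Slit and Robo system, SLIT3 had 9.88, 9.90 and 9.79 in Bf 140 nM and 9.85, 9.88 and 9.51 in DMSO 0.6% by its brightest probe set, higher in 3 of 3 pairs, with a ratio of 1.08 (95% CI 0.882 to 1.33). The SLIT3 probe set next in brightness was also higher in 3 of 3 pairs, at 0.20, 0.14 and 0.04, and the dimmest had a difference of -0.02. Without DMSO replicate 3 the difference of the brightest SLIT3 probe set was -0.0055. ROBO1, the main Slit receptor measured, had 9.79, 9.61 and 9.98 in Bf 140 nM and 9.71, 9.85 and 9.92 in DMSO 0.6%, a ratio of 0.977 (95% CI 0.797 to 1.20). SLIT1, SLIT2, ROBO3 and ROBO4 differed by 0.02, 0.0019, -0.07 and -0.0014. The groups of SLIT3 and ROBO1 overlapped.

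Of the netrin receptors, UNC5B had 10.70, 10.84 and 10.59 in Bf 140 nM and 10.89, 10.66 and 10.46 in DMSO 0.6%, a ratio of 1.03 (95% CI 0.825 to 1.29). UNC5C had 9.60, 9.12 and 9.34 in Bf 140 nM and 9.71, 9.35 and 8.63 in DMSO 0.6%. The ratio was 1.09 (95% CI 0.703 to 1.69, and 0.847 to 1.41 with the replicate block). UNC5 receptors are also known as dependence receptors, which can promote cell death when no netrin is bound. The UNC5C differences in pairs 1, 2 and 3 were -0.11, -0.23 and 0.72, and the overall value of 0.13 was -0.18 without DMSO replicate 3. DCC and NTN1, below background, differed by 0.0095 and -0.0003.

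**Figure D4:**
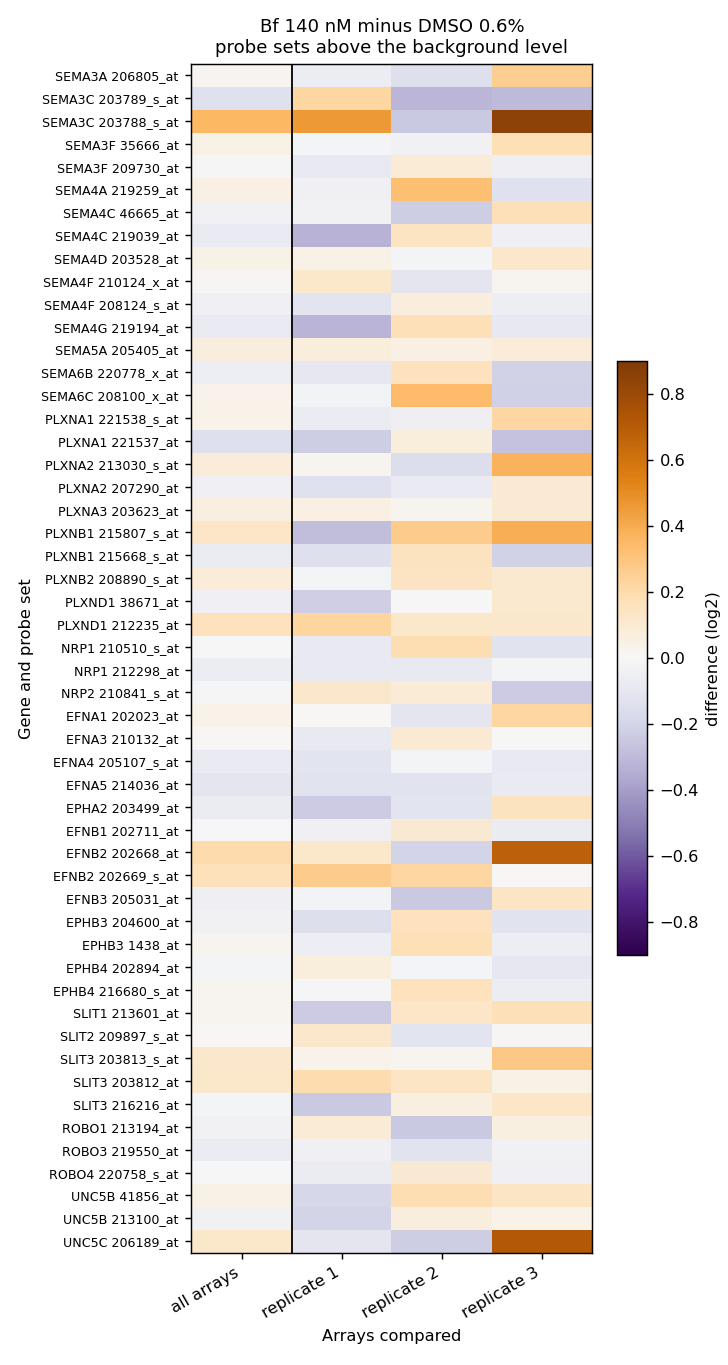
Bf 140 nM minus DMSO 0.6% (log2, colour) for the 52 member probe sets above the background level, over all arrays and within each replicate number. Most entries are pale and change colour between replicate numbers; the strongest are the dimmer SEMA3C probe set, UNC5C and the brighter EFNB2 probe set in replicate 3, at 0.85, 0.72 and 0.68.

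The groups did not overlap for 3 member probe sets, against 2.66% of all probe sets, and all 3 were below the background level. In 2 of them Bf 140 nM was higher (1.68% of all probe sets) and in 1 lower (0.981% of all). PLXNC1, by one probe set, had 7.12, 6.96 and 6.95 in Bf 140 nM and 6.87, 6.90 and 6.92 in DMSO 0.6%, and SEMA6A, by one probe set, had 6.55, 6.68 and 6.54 in Bf 140 nM and 6.52, 6.52 and 6.44 in DMSO 0.6%. EPHA1, by one probe set, was lower, with 7.14, 7.26 and 7.15 in Bf 140 nM and 7.41, 7.32 and 7.27 in DMSO 0.6%. A positive difference in all 3 pairs was found for 12 member probe sets (8.96% of all probe sets) and a negative one for 6 (4.70% of all). The probe sets of one gene often disagreed: of 28 genes with several, 9 had all differences on one side of 0 and 19 had them on both sides. Besides SEMA3C, PLXNA1 and SLIT3, the further probe sets of PLXNB1 (-0.07), EFNA5 (0.07), EPHB4 (0.03), SEMA4G (0.02) and UNC5B (-0.03) were opposite in sign to the brightest one. Those of NRP2 lay on both sides of 0, from -0.12 to 0.11. The further probe sets of EFNA5, SEMA4G and NRP2 were below the background level.

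The arrays were also compared by the replicate number that the labels give to one array of each group. In limma with treatment and replicate number as terms, 6 of 93 member probe sets (6.45%) differed between replicate numbers at an adjusted p of 0.10. The share over all probe sets was 11.0%. All 6 lay above background, where the shares were 11.5% of 52 member probe sets and 16.2% of all probe sets. This test was chosen after the values were seen. The lowest adjusted p was that of one probe set of NRP1, the neuropilin that binds SEMA3A, which had 7.66, 7.98 and 7.05 in Bf 140 nM and 7.74, 8.06 and 7.06 in DMSO 0.6%, so that replicate 3 was low in both groups (adjusted p = 0.00699 by limma). The brightest NRP1 probe set (adjusted p = 0.114 by limma) and the dimmest (0.977) did not pass. EFNA5, by its brighter probe set, was high in replicate 3 of both groups (adjusted p = 0.00765 by limma). The dimmer probe set of SEMA3C (adjusted p = 0.0125 by limma) and the brighter one of PLXNB1 (adjusted p = 0.0535) were low there. EFNB2 passed in both of its probe sets, with adjusted p = 0.0396 for the dimmer and 0.0550 for the brighter one by limma, and its lowest values were those of replicate 2.

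For NRP1 the replicate means spanned 0.97 and for EFNA5 0.88 on the log2 scale, while their treatment differences were -0.06 and -0.11. Without DMSO replicate 3 the same test gave NRP1 (adjusted p = 0.000464 by limma), EFNA5 (0.000486), SEMA3C (0.00187) and the brighter EFNB2 probe set (1.09e-06) again, while PLXNB1 (0.233) and the dimmer EFNB2 probe set (0.132) did not pass. A probe set each of PLXNA2 and EPHB1 was added, and the share over all probe sets was 10.3%. Without replicate 3 of both groups 2 members passed, the brighter one of EFNB2 (2.88e-05 by limma), low in replicate 2, and a probe set of PLXNA2, against 2.62% of all probe sets. Both arrays of replicate 3 had the highest beta-actin 3' minus 5' differences of their groups, 0.89 in Bf 140 nM and 2.21 in DMSO 0.6%, and their part in this was not tested.

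**Figure D5:**
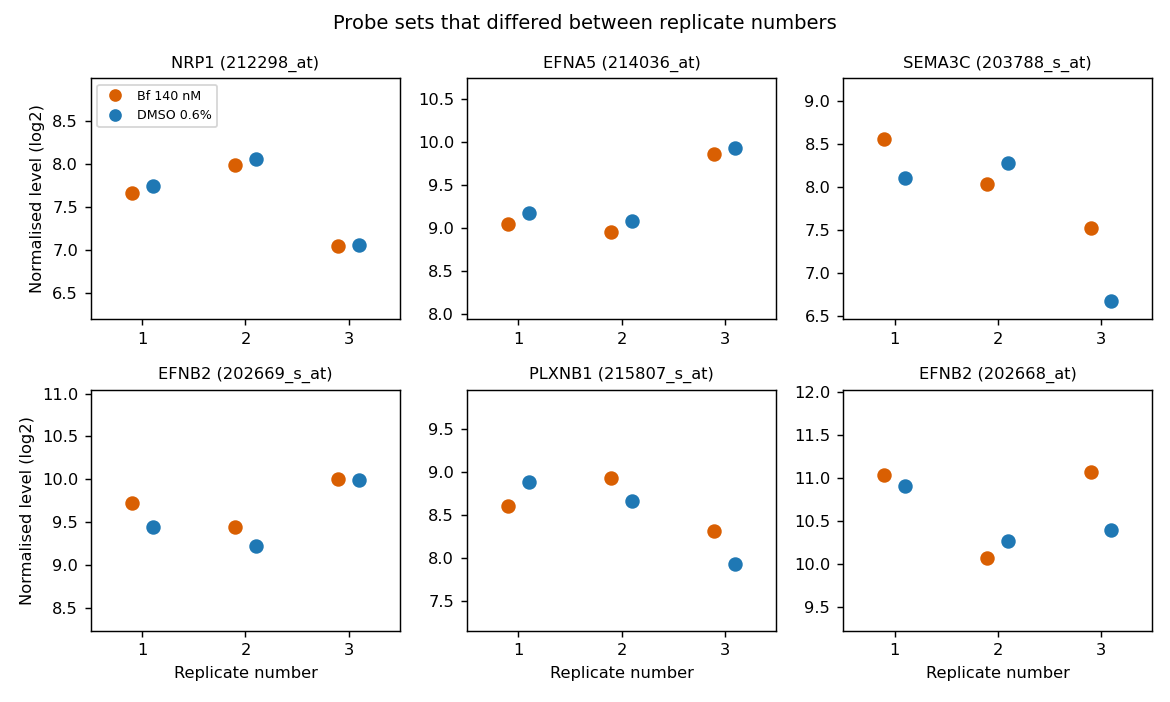
Normalised log2 level of the 6 member probe sets that differed between replicate numbers, where orange stands for Bf 140 nM and blue for DMSO 0.6%; every vertical axis spans the same range. NRP1 and EFNA5 have near-equal values in both groups at each number and a shift of replicate 3, and EFNB2 is lowest in replicate 2.

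The other genes of the pathway were examined as a list of 68 measured genes, made of 23 co-receptors and further cues and 45 intracellular effectors. None passed an adjusted p of 0.10 by limma with or without the replicate block. At an unadjusted p under 0.05 there were 0 without the block and 1 with it (L1CAM). Over all 11963 genes there were 13 and 38. The median difference was -0.04 for the co-receptors and cues and 0.03 for the effectors, beside 0.03 over all genes. L1CAM, an adhesion molecule that joins the neuropilin receptor complex, differed by 0.26, and RTN4, which encodes the axon growth inhibitor Nogo, by -0.24. Both were named after their values were seen. L1CAM had 9.62, 10.04 and 10.46 in Bf 140 nM and 9.39, 9.78 and 10.18 in DMSO 0.6%, higher in 3 of 3 pairs with overlapping groups. The highest RTN4 value was that of DMSO replicate 3, at 13.37, against 12.79 to 12.97 on the other arrays. LIMK1, the kinase that acts on cofilin downstream of these receptors, had a difference of 0.15, and its groups did not overlap. LIMK1 and CHL1, a relative of L1CAM that was lower and below background, were the 2 genes of the list without overlap, against 2.66% of all probe sets.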

How the data were processed

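RNA of SH-SY5Y cells was hybridised to Affymetrix human expression arrays, 3 per group. The authors normalised and transformed the intensities with vsn in R 2.5.0, and the deposited values are on a generalised log2 scale, which compresses differences of dim probe sets. The highest value, 15.2, lies above the natural log limit of a 16-bit scanner, 11.1, and below its log2 limit, 16. The sources used here do not give the step from probes to probe sets. The number of arrays limits the precision.

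Of 22277 probe sets, 62 controls were left out and 22215 tested. In the platform annotation 19064 had 1 symbol, 1043 several and 2108 none, and all 93 member symbols were current in RefSeq. UNC50 shares its first letters with the UNC5 family and was not taken. The members and lists were chosen with earlier results of these data known.

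Groups were compared with limma 3.58.1 in R 4.3.3 (lmFit, eBayes, two-sided, Benjamini-Hochberg over all probe sets, threshold 0.10). The study's methods name SAM, which was not run, and do not say whether it was paired; the comparison here was unpaired, with the replicate block as an alternative. The unpaired fit was tested on simulated data, drawn for each array independently and without effects of a replicate number. That test does not cover arrays that deviate together. Values per array are given for the member genes that lay above background by their brightest probe set and either did not overlap between groups, were among the 4 highest or 4 lowest differences, had the highest mean of their family, or passed the threshold. This named 14 genes, and any other was named after its values were seen. The replicate numbers come from the labels, which do not say what they stand for. Deviations from the group means of same-numbered arrays correlated at 0.601, 0.228 and 0.573 over all probe sets, each above 0.1, so the numbers were taken to pair the arrays. The alternatives were quantile normalisation, centring on the median, leaving out dim or cross-matching probe sets, leaving out each array, the replicate block, and other background levels. Leaving out replicate 3 of both groups was added after seeing the data.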

Additional observations from a re-analysis of the deposited data

How the results depend on the processing

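No member probe set and no other axon guidance gene passed an adjusted p of 0.10 by limma under any alternative run for it. This includes the replicate block (0 of 93 members), where no probe set of the array passed either. At an unadjusted p under 0.05 by limma, the block added L1CAM among the other axon guidance genes. The median member difference stayed between -0.02 and 0.06 when single arrays were left out and was -0.02 after centring. Among the 93 members the probe sets without overlap numbered 3, against 2.66% of all probe sets, and 4 after quantile normalisation. Of the 32 members above the median probe set, 0 were without overlap. Probe sets without overlap numbered 6 to 16 when 1 array was left out and 22 without replicate 3 of both groups. With fewer arrays non-overlap is commoner by construction. The share over all probe sets is not given for these alternatives, so their counts show nothing particular to the members. The pairs with both genes above background numbered 29, 19 at the 99th percentile of the background list and 17 at the median probe set, where 28 and 26 genes passed. After quantile normalisation the differences of PLXNA1 and UNC5B turned to -0.0152 and -0.0042. Without replicate 3 of both groups, a setting added after seeing the data, EFNB2 turned to -0.0369, EPHB4 to 0.0251, NRP2 to 0.10, PLXNA1 to -0.0564, PLXNB1 to -0.0041, UNC5B to -0.0004 and UNC5C to -0.17. With single arrays left out, the differences of the brightest probe sets ranged from -0.39 to 0.16 for EFNA5, 0.03 to 0.53 for EFNB2, -0.25 to 0.0511 for EPHA2, -0.10 to 0.0331 for EPHB4, -0.0619 to 0.0690 for NRP2, -0.0720 to 0.10 for PLXNA1, -0.15 to 0.32 for PLXNB1, -0.13 to 0.0596 for ROBO1, -0.0055 to 0.18 for SLIT3, -0.0613 to 0.16 for UNC5B and -0.18 to 0.37 for UNC5C. The brightest probe sets of EFNA4 (-0.09 to -0.05), SEMA3C (-0.24 to -0.03) and SEMA4G (-0.16 to -0.01) stayed negative under the alternatives run. The dimmer ones of SEMA3C and SEMA4G were positive with all arrays, that of SEMA4G from below the background level. The cause of these turns was not tested. Signal near background limits what could be seen for the 41 member probe sets below it.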
